A study of Homo sapiens with 4 samples.

Results

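The genes described here encode the proteins of the cytosolic ribosome. They were chosen by symbol: protein-coding genes named RPL or RPS with a number and an optional paralog letter, the stalk genes RPLP0, RPLP1 and RPLP2, and RPSA, without RPS27L, the RPS6K kinase genes and pseudogenes. The rule found 83 genes among the 60617 gene entries of the deposited table, 52 for the large (60S) and 31 for the small (40S) subunit. It uses no measured value.

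The cells were SKNMC, an established human line of Ewing sarcoma, a tumour driven by fusion proteins of EWSR1 and an ETS-family factor. They were kept for 24 h in 1 µM CBL0137 (n = 2 libraries) or in its vehicle DMSO (n = 2 libraries), and their total RNA was sequenced. CBL0137 belongs to the curaxins, DNA-binding small molecules that hold FACT, a histone chaperone, on chromatin and so take it out of action. The study tests FACT inhibition as a treatment of this tumour, and here the question is which ribosomal protein transcripts differ in abundance between CBL0137 and DMSO cells. All 4 libraries come from 1 cell line, and the labels do not state whether replicates were grown as separate cultures. The p-values therefore rest on a spread between libraries that may be technical.

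Each mature ribosome carries 1 copy of nearly every ribosomal protein beside the ribosomal RNAs, and the proteins are assembled onto the precursor RNAs in the nucleolus. Their mRNAs are among the most abundant of growing cells. Most begin with a cytosine followed by a run of pyrimidines, the 5′ terminal oligopyrimidine (TOP) motif, through which the mTOR kinase and the RNA-binding protein LARP1 control their translation and stability. A few genes have paralogs of restricted expression, such as RPL3L in muscle and RPL39L in testis and some tumours.

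Gene-assigned reads numbered 20767817 and 21061892 with CBL0137, against 20086664 and 19625517 with DMSO. Reads outside annotated genes were 10.3 and 10.2% of counted reads with CBL0137, against 8.52 and 8.82% with DMSO, and reads in overlapping genes 8.75 and 8.78%, against 9.34 and 9.27%. All 10 Ewing sarcoma markers listed (CD99, NR0B1, PAX7 and others) were detected, and 7 of them fell. By the same call, which is defined below, 15.1% of all genes tested fell and 18.2% rose. Of markers of other cell types, HBB was at 0 in every library, the 6 blood markers summed to 108 and 125 CPM (counts scaled to a common library size) with CBL0137 and 163 and 163 with DMSO, the endothelial ones to 4.19 and 4.88 against 2.85 and 2.58, the epithelial ones to 134 and 138 against 181 and 161, and the fibroblast ones to 1554 and 1549 against 1310.1 and 1297. In these lists 0 of 2 tested blood genes, 1 of 2 endothelial, 5 of 6 epithelial and 2 of 6 fibroblast genes rose, while 1 epithelial and 1 fibroblast gene fell. Their part in the results below was not tested.

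The first bases of the transcripts are shown for genes that fell and genes that were not called (the call is defined below). Some have a pyrimidine run at the listed start base and others do not. The sequences are RefSeq starts on GRCh38.p14, 5′ to 3′ on the gene's strand, with 10 bases before the start and 20 from it, and capitals mark the pyrimidine run that begins at the start base with C.
RPL12: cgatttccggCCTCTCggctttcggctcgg
RPLP0: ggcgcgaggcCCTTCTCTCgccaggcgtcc
RPSA: tgccgcctgtCTTTTCCgtgctacctgcag
RPS27A: ggcgttcttcCTTTTCgatccgccatctgc
RPL22L1: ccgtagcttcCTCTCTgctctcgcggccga
RPL28: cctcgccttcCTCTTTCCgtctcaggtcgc
RPS27: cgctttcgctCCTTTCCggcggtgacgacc
RPL9: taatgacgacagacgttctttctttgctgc
RPS26: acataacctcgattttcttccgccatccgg
RPS29: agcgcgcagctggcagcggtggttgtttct
In order, these windows lie at chr9:127451387-127451416 (minus strand), chr12:120201092-120201121 (minus), chr3:39406710-39406739 (plus), chr2:55232678-55232707 (plus, the start with the run among the 3 listed for RPS27A), chr3:170870176-170870205 (minus), chr19:55385922-55385951 (plus), chr1:153990752-153990781 (plus), chr4:39458903-39458932 (minus), chr12:56041908-56041937 (plus) and chr14:49598691-49598720 (minus). RPL12, RPLP0, RPSA, RPS27A and RPL22L1 start with the run and fell, whereas RPL28 and RPS27 start with it and were not called. RPL9, without the run at its listed start, fell, and RPS26 and RPS29, also without it, were not called.

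Ribosomal protein transcripts were lower in CBL0137 cells as a group, by unequal amounts from gene to gene. A gene was called when the quasi-likelihood F test of edgeR gave a Benjamini-Hochberg adjusted p under 0.05 over all genes tested and the fold was above 1.5. Of 82 ribosomal protein genes that passed the filter on low counts, 35 fell, 0 rose and 47 were not called, against 15.1% of all 17374 genes tested called lower and 18.2% called higher. Without the fold limit, 72 were lower and 2, RPL23A and RPS26, higher at that adjusted p, with 30.9% lower and 30.8% higher over all genes. Their median log2 fold change (CBL0137 over DMSO) was -0.52, with quartiles of -0.72 and -0.32, beside a median of 0.012 over all genes and -0.023 over the 13275 protein-coding genes tested. A value below 0 was found for 78 of the 82 genes. The one member not tested, RPL10L, had 0 reads in every library. A floor of 3 reads would be 0.144 and 0.142 CPM with CBL0137 and 0.149 and 0.153 CPM with DMSO. This floor is taken over the plain totals of reads in genes, not the scaled totals of the other CPM.

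**Figure D1:**
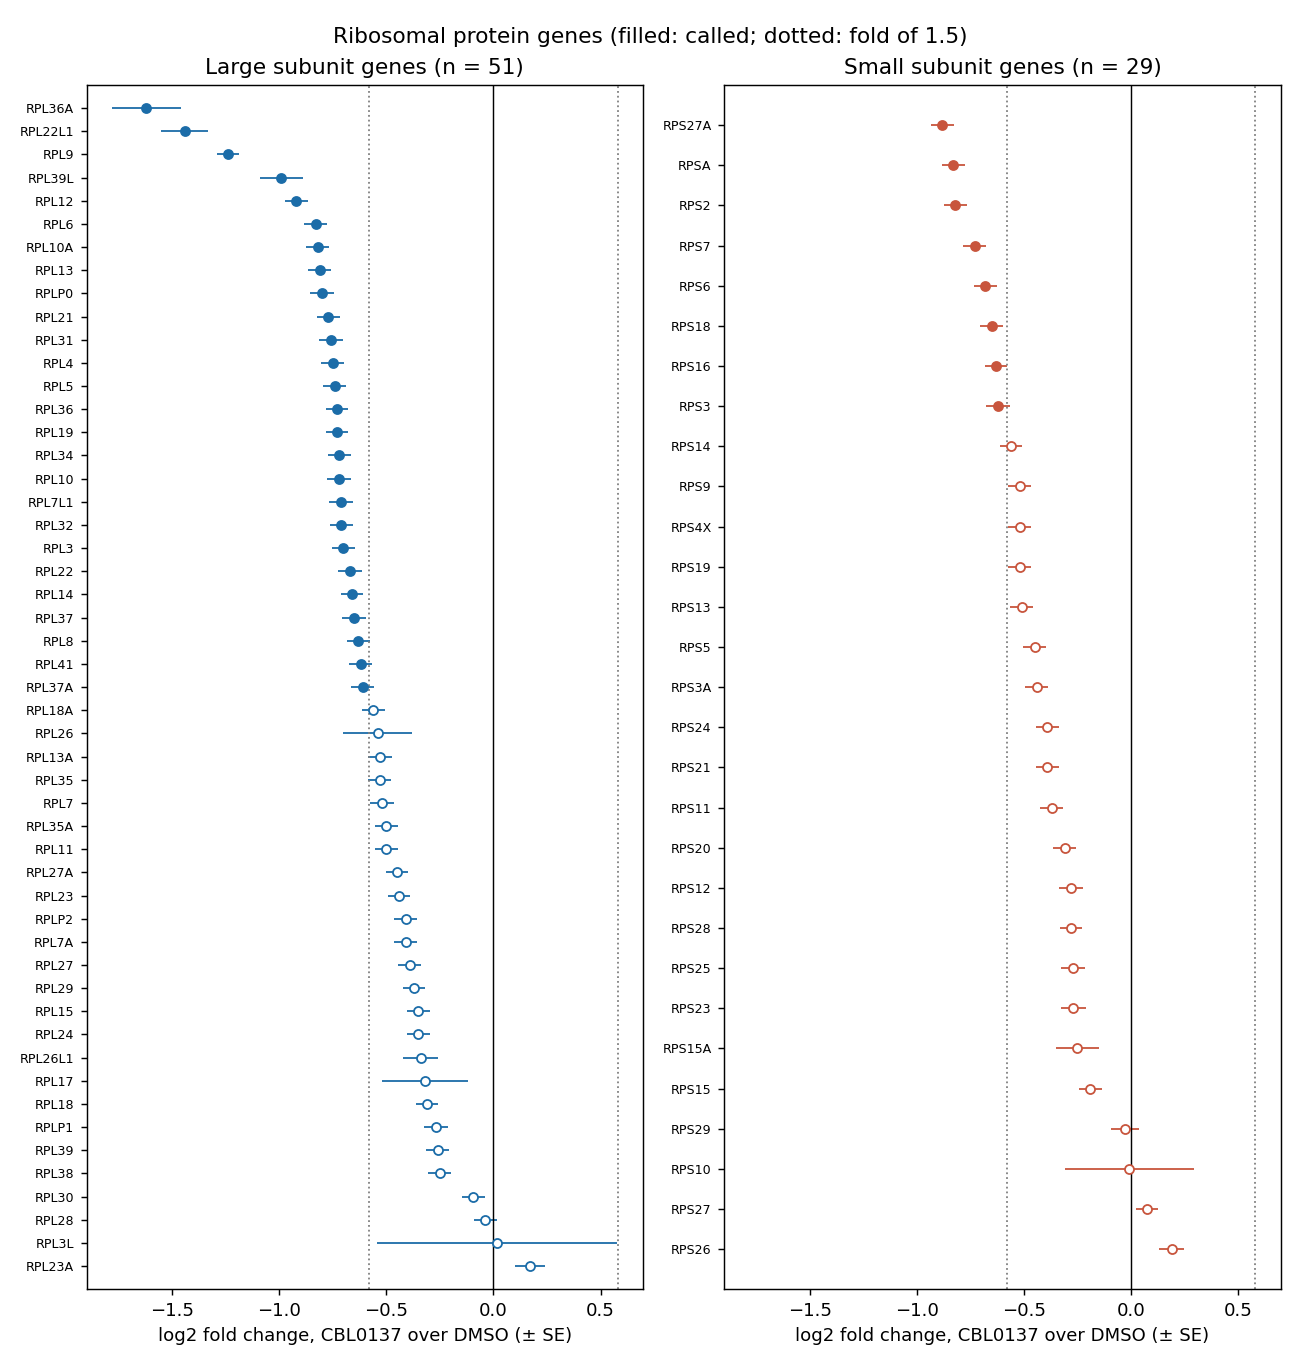
Log2 fold change of the tested ribosomal protein genes reported here, CBL0137 over DMSO (2 libraries each), with its standard error from edgeR, large subunit genes on the left and small subunit genes on the right, in order of size. Filled points are called genes and dotted lines mark a fold of 1.5; most points lie left of 0, between -1.62 for RPL36A and 0.19 for RPS26.

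Together these genes took 4.34 and 4.42% of the reads in genes with CBL0137 (95% Wilson intervals 4.33 to 4.35% and 4.41 to 4.43%, counting error only), against 6.03 and 5.69% with DMSO (6.02 to 6.04% and 5.68 to 5.70%). The means were 4.38 ± 0.055% and 5.86 ± 0.25% (SD, n = 2 each), and the groups did not overlap. A comparison of 2 libraries with 2 allows an exact two-sided permutation p no smaller than 0.333, so no test is given for such single values. These are shares of sequenced RNA, and in bulk RNA less of these transcripts per cell and more of other RNA per cell cannot be told apart. The size of the decrease depended on the scaling: with library size alone, without the TMM factors that adjust for RNA composition, the median of all genes shifted up by 0.16, the members' median was -0.36 and 15 members were called lower, against 10.8% lower and 23.8% higher over all genes. Upper-quartile factors gave 27 members lower, against 13.1% of all genes. Leaving out 1 library gave 29 to 42, against 13.3 to 14.6% of all genes. Under every scaling tried, 74 members had a value below 0.

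Large subunit genes were called lower in 26 of 51 cases and small subunit genes in 9 of 31, with medians of -0.61 and -0.44. The share called lower over all genes tested was 15.1%. Large subunit reads made up 2.71 ± 0.022% of the CBL0137 libraries and 3.70 ± 0.17% of the DMSO libraries, and small subunit reads 1.67 ± 0.033% and 2.16 ± 0.08%. The ratio of small to large subunit reads was 0.609 and 0.619 with CBL0137, against 0.580 and 0.586 with DMSO, so that both CBL0137 libraries lay above both DMSO libraries. With the deposited FPKM values (reads scaled by gene length and depth) in place of counts, the medians of the subunits lay closer, at -0.44 and -0.42, although 17 large and 4 small subunit genes were called lower with limma on log2(FPKM + 1), against 7.85% of all genes. Genes are not replicates, and the difference between the subunits was not tested.

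Among large subunit genes, the 3 lowest values belonged to RPL36A, RPL22L1 and RPL9, which were the only members to pass a fold of 2 (7.01% of all genes were lower by that rule). RPL22L1 (ENSG00000163584, GRCh37 chromosome 3, 170582664 to 170587997, minus strand), a paralog of the RNA-binding protein RPL22, had 8.37 and 9.57 CPM in the CBL0137 libraries and 24.3 and 24.4 CPM in the DMSO libraries. Both CBL0137 values lay below both DMSO values, and the log2 fold change was -1.44 (SE 0.11, edgeR, Benjamini-Hochberg adjusted p = 2e-14). RPL9 (ENSG00000163682, chromosome 4, 39454207 to 39460551, minus strand), a protein near the GTPase-associated centre where translation factors bind, had 341 and 348 CPM with CBL0137 and 823 and 801 CPM with DMSO, a log2 fold change of -1.24 (SE 0.052, edgeR, Benjamini-Hochberg adjusted p = 3.7e-23). Its replicates were close together in counts, yet its deposited FPKM was 408 and 196 with CBL0137 and 403 and 372 with DMSO, where the groups overlapped and RPL9 was not called (-0.45, limma adjusted p = 0.368). RPL39L, a paralog of the exit tunnel protein RPL39, had 17 and 20.5 CPM with CBL0137 and 39.8 and 34.7 CPM with DMSO, and fell by 0.99 on the log2 scale (SE 0.10, edgeR, Benjamini-Hochberg adjusted p = 6e-12). RPL22L1 and RPL39L fell by counts, by FPKM and with library size alone.

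RPL12 (ENSG00000197958, GRCh37 chromosome 9, 130209953 to 130213685, minus strand) sits at the base of the ribosomal stalk, the flexible arm that recruits elongation factors. It had 579.5 and 588 CPM with CBL0137 and 1138 and 1076 CPM with DMSO, a log2 fold change of -0.92 (SE 0.053, edgeR, Benjamini-Hochberg adjusted p = 7.9e-19), with no overlap between groups. RPLP0, the scaffold of the stalk, had 1573 and 1580 CPM with CBL0137 and 2852 and 2640.1 CPM with DMSO and fell by 0.80 on the log2 scale (SE 0.055). Its partners RPLP1 and RPLP2, which form the acidic dimers of the stalk, were not called: RPLP1 had 955 and 991 CPM with CBL0137 and 1238 and 1102 CPM with DMSO (-0.27, SE 0.056), and RPLP2 540.3 and 554 CPM with CBL0137 and 762 and 692 CPM with DMSO (-0.41, SE 0.054). The mRNAs of proteins that meet in one structure thus had values from -0.92 to -0.27. In FPKM, RPLP0 had -0.38 and was not called (limma adjusted p = 0.0543), whereas RPL12 had -0.86 and was called.

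RPL5 and RPL11 form with 5S ribosomal RNA the particle that can bind and inhibit MDM2, the ubiquitin ligase of p53. RPL5 had 779 and 814 CPM with CBL0137 and 1349 and 1308 CPM with DMSO and fell by 0.74 (log2, SE 0.053). RPL11 had 703 and 714 CPM with CBL0137 and 1050.2 and 956 CPM with DMSO. Its groups did not overlap either, and its log2 fold change of -0.50 (SE 0.054) stayed under the fold limit. RPL3 and RPL10, next to the peptidyl transferase centre, had -0.70 and -0.72 by counts and both fell. With library size alone RPL5 (-0.58), RPL3 (-0.54) and RPL10 (-0.56) were not called. By FPKM, RPL3 had -0.61 and RPL10 0.17, so the direction for RPL10 was not the same in the 2 kinds of deposited value.

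Of the highly counted large subunit genes, RPL7 had 1899 and 1969.5 CPM with CBL0137 and 2845 and 2699 CPM with DMSO (-0.52, SE 0.055, not called). RPL8, which packs against the catalytic core, had 1518 and 1564 CPM with CBL0137 and 2493 and 2287 CPM with DMSO and fell by 0.63 (log2, SE 0.055). RPL8 was not called with library size alone (-0.47), upper-quartile factors (-0.57), CPM above 1 in every library (-0.58) or FPKM (-0.53). RPL4, whose extended loop lines the peptide exit tunnel, fell by 0.75 and RPL31, at the tunnel exit, by 0.76. RPL6 (-0.83), RPL10A (-0.82), which forms the L1 stalk over the exit site of transfer RNA, and RPL13 (-0.81) were close to each other, within 1 SE. At the other end stood RPL28 with 429 and 407 CPM in CBL0137 libraries and 441 and 417 CPM in DMSO libraries (-0.037, SE 0.053), where the groups overlapped. Both RPL30 (-0.093) and RPL28 changed sign between scalings, up to 0.066 and 0.12 with library size alone.

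Of the small subunit genes, RPS27A, RPSA and RPS2 had the lowest values. RPS27A encodes ubiquitin fused to a ribosomal protein of the 40S beak, and it had 349.9 and 376 CPM with CBL0137 and 702 and 638 CPM with DMSO (-0.88, SE 0.055, edgeR, Benjamini-Hochberg adjusted p = 1.3e-17). RPSA, the laminin receptor precursor on the 40S back near the mRNA exit, had 415 and 450 CPM with CBL0137 and 795 and 743 CPM with DMSO (-0.83, SE 0.054). RPS2, which lines the mRNA entry channel, had 1525 and 1555 CPM with CBL0137 and 2658 and 2776 CPM with DMSO (-0.82, SE 0.054). None of the 3 overlapped between groups, and all were called lower by counts, by FPKM and with library size alone. RPS7, RPS6 (the substrate of S6 kinase), RPS18, RPS16 and RPS3 also fell, by 0.73 to 0.62 on the log2 scale. None of these 5 was called with library size alone (-0.57 to -0.46), and by FPKM RPS7 alone was called.

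RPS26 (ENSG00000197728, GRCh37 chromosome 12, 56435135 to 56438481, plus strand), which contacts the mRNA upstream of the start codon, had the highest value of all members. It had 128 and 142 CPM with CBL0137 and 118 and 118 CPM with DMSO, a log2 fold change of 0.19 (SE 0.057, edgeR, Benjamini-Hochberg adjusted p = 0.00488), which is under the fold limit. RPS27, a zinc-finger protein, had 518 and 510.2 CPM with CBL0137 and 489 and 488 CPM with DMSO (0.074, SE 0.051). Its groups did not overlap, but the difference was within the error of the model (edgeR, Benjamini-Hochberg adjusted p = 0.212). RPS29, a small zinc-binding protein of the 40S head, had 103 and 115 CPM with CBL0137 and 120.2 and 102 CPM with DMSO, which overlapped. Its value of -0.029 (SE 0.065) changed sign with library size alone, at 0.13. The values for RPS26 (0.22) and RPS27 (0.19) stayed above 0 by FPKM as well.

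**Figure D2:**
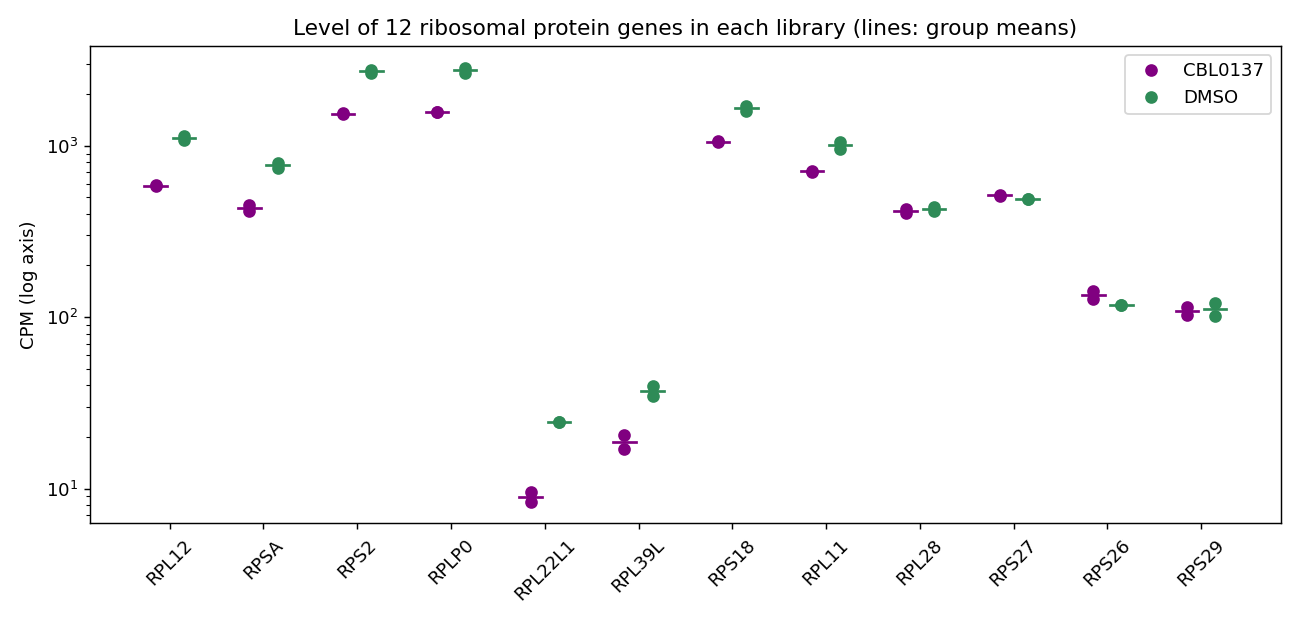
CPM (log axis) of 12 ribosomal protein genes in each CBL0137 library and each DMSO library, with lines at the group means. RPL12, RPSA, RPS2, RPLP0, RPL22L1, RPL39L, RPS18 and RPL11 have both CBL0137 points below both DMSO points, RPL28 and RPS29 overlap, and RPS26 lies at 128 and 142 CPM with CBL0137 and 118 and 118 CPM with DMSO.

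Grouped by place in the ribosome, with groups drawn from textbook structure after values had been seen, the groups gave a range of values, to be read beside the 15.1% of all genes called lower. Genes of the peptide exit tunnel had 3 of 8 called lower (median -0.54), those of mRNA entry and decoding 2 of 4 (median -0.44), of the mRNA exit and platform 1 of 6 (median -0.36), of the head 2 of 8 (median -0.38) and of the beak 1 of 3 (median -0.28). The tunnel group includes the thinly counted RPL17, RPL23A and RPL26 and the beak group RPS10 (described below), and by FPKM their medians were -0.61, with 4 of 8 called, and -0.48, with 1 of 3 called. The platform group spanned RPSA at -0.83 and RPS26 at 0.19. Of 10 genes mutated in Diamond-Blackfan anaemia, an inherited red cell failure, 2 were called lower (RPL5 and RPS7), with a median of -0.50. Introns of 29 tested members hold annotated small nucleolar RNAs, which guide the modification of ribosomal RNA. Of these hosts 14 were called lower (median -0.56), and of the 53 other members 21 (median -0.52).

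Levels were ranked between genes by the deposited FPKM, which relate reads to gene length. The ranks carry the errors of the FPKM values described below. RPL37, for example, had a mean of 878 CPM but of 72.1 FPKM with DMSO. The ranks given cover 75 tested members, leaving out 7 described next whose counts were very low for their FPKM. RPS18, of the 40S head, was first in both groups, with 1290 and 1316 FPKM with CBL0137 and 1977 and 1871 FPKM with DMSO. RPS27 ranked 6 with CBL0137 and 15 with DMSO, at 1045 and 1040.4 FPKM with CBL0137 and 912 and 917 FPKM with DMSO. RPL12 was at 620.4 and 630.2 FPKM with CBL0137, rank 20, and 1159.7 and 1106 FPKM with DMSO, rank 11. RPL39L (15.6 and 19.6 FPKM with CBL0137, 34.8 and 30.4 with DMSO), RPL22L1 (8.43 and 8.3 with CBL0137, 22.1 and 22.1 with DMSO) and RPL3L (0.049 and 0.118 with CBL0137, 0.104 and 0.06 with DMSO) were the 3 lowest.

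For 7 members the deposited counts were far lower than their FPKM values imply, and their fold changes by counts rest on few reads. The ratio of CPM to FPKM in the DMSO libraries gives the transcript length that the counts stand for. It had a median of 1067 bases and a minimum of 375 bases in the other 75 tested members. Some of the 75 departed the other way, up to 11496 bases for RPL37, whose coding length is 291 bases. Among the 7 it was 2.66 bases for RPS10, 6.27 for RPL17, 14.5 for RPL26, 24.5 for RPL36A, 64.6 for RPS15A and 119 for RPL23A. Of these genes, 6 lie on the same strand as an overlapping protein-coding entry, namely the read-through genes RPS10-NUDT3, RPL17-C18orf32 and RPL36A-HNRNPH2 and 3 entries without a symbol. Counting with HTSeq leaves out reads that fit more than 1 gene, and each of these 6 partners had 0 counts in all 4 libraries, while RPS10-NUDT3 had 74.6 and 76.1 FPKM with CBL0137 and 104 and 102 FPKM with DMSO. RPL23A overlaps TLCD1 on the opposite strand. Whether the overlaps account for the low counts was not tested.

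RPL36A (ENSG00000241343, GRCh37 chromosome X, 100645812 to 100651143, plus strand), near the transfer RNA exit site, is the member with the lowest log2 fold change, -1.62 (SE 0.16, edgeR, Benjamini-Hochberg adjusted p = 8.6e-12). It rests on 83 and 115 reads with CBL0137 and 262 and 256 reads with DMSO. Its FPKM was 228 and 221 with CBL0137 and 409.9 and 657 with DMSO, with no overlap and a difference of -1.21 on the log2(FPKM + 1) scale (limma adjusted p = 0.0203), so that it was called lower by both. RPL23A, at the tunnel exit, had 58.1 and 54.9 CPM with CBL0137 and 49.8 and 50.9 CPM with DMSO, the second highest log2 fold change of 0.17 (SE 0.069). By FPKM it had 333 and 257 with CBL0137 and 425 and 372 with DMSO, a difference of -0.44 in the opposite direction. RPS10, a protein of the 40S beak, had 49 and 48 reads with CBL0137 and 51 and 32 with DMSO (-0.0071, SE 0.30), against 587 and 539 FPKM with CBL0137 and 801 and 768 FPKM with DMSO (-0.48). RPL17, at the tunnel exit, had -0.32 by counts and was not called, and -0.67 by FPKM, where it was called lower. All 7 genes lay below 0 by FPKM (median -0.55), against a median of -0.25 by counts with 1 called lower. Without these 7, 34 of 75 members fell, with a median of -0.53 (25 of 47 in the large subunit, median -0.62, and 9 of 28 in the small subunit, median -0.48).

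**Figure D3:**
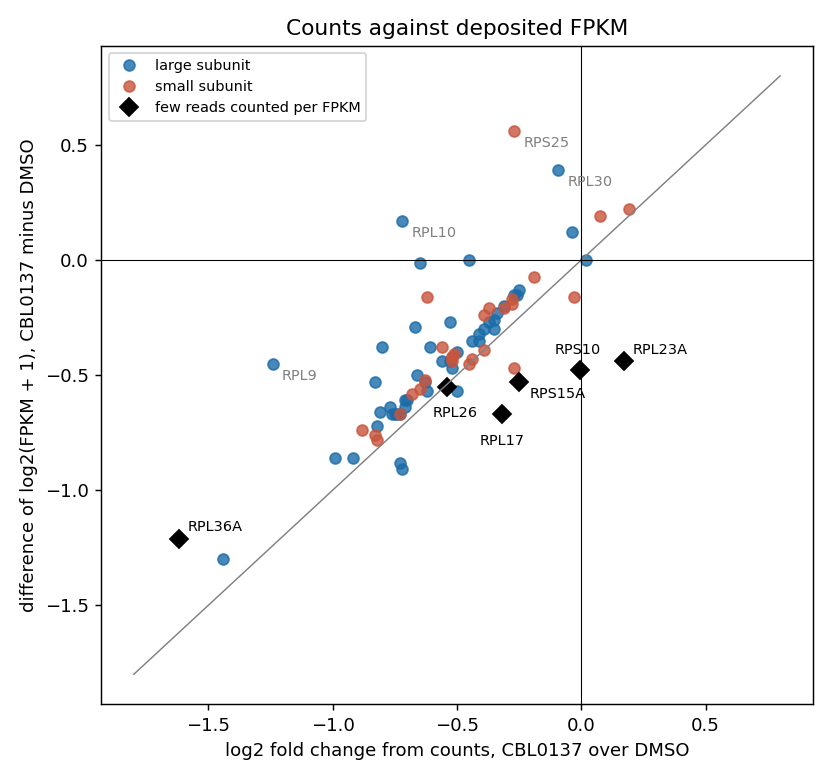
For the tested ribosomal protein genes reported here, the log2 fold change from counts (horizontal) against the difference of mean log2(FPKM + 1) (vertical), both CBL0137 against DMSO, with the diagonal of equal values. Black diamonds are genes whose counts stand for under 200 bases of transcript; RPL23A, RPS10, RPL17 and RPS15A lie below the diagonal, while RPL9, RPL10, RPL30 and RPS25 lie well above it.

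The FPKM values carry an error of their own. Replicates lay more than 1.5-fold apart in FPKM in 11 members, against 2 members in CPM. RPL30 had 877 and 258 FPKM with CBL0137, a 3.4-fold gap where its CPM were 1.01-fold apart, and 372 and 354 FPKM with DMSO. RPS25 had 554 and 587 FPKM with CBL0137 and 673 and 223 FPKM with DMSO, a 3.02-fold gap against 1.11-fold in CPM. RPL7 differed 3.1-fold and RPL9 2.08-fold between the CBL0137 replicates. The high FPKM differences of RPS25 (0.56) and RPL30 (0.39) therefore rest on 1 library each. By both counts and FPKM, 20 members were called lower. Of these, 12 were called with library size alone too: RPL10A, RPL12, RPL13, RPL21, RPL22L1, RPL31, RPL36A, RPL39L, RPL4, RPS2, RPS27A and RPSA. Of all genes, 15.1% were lower by counts, 7.85% by FPKM and 10.8% with library size alone. The share of all genes that pass these rules together was not computed.

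Paralogs were compared with their parent genes by the log2 ratio of their reads within each library, where depth cancels. RPL22L1 to RPL22 was -3.43 and -3.22 with CBL0137 and -2.59 and -2.51 with DMSO, a difference of -0.77 on the log2 scale (-1.11 by FPKM). RPL22 itself had 90.5 and 89 CPM with CBL0137 and 147 and 139.6 CPM with DMSO and fell by 0.67. RPL22 was not called with library size alone (-0.51) or by FPKM (-0.29), and it overlaps a protein-coding entry without a symbol on the same strand, which had 0 counts but 301 and 307 FPKM with CBL0137 and 353 and 339 FPKM with DMSO. RPL39L to RPL39 was -4.01 and -3.74 with CBL0137 and -3.10 and -3.18 with DMSO, a difference of -0.74 (-0.75 by FPKM), beside 274 and 274 CPM of RPL39 with CBL0137 and 342 and 314 CPM with DMSO (-0.26, not called). RPL7L1, a relative of RPL7, had 168 and 189 CPM with CBL0137 and 294 and 291 CPM with DMSO and fell by 0.71. Its ratio to RPL7 was -3.50 and -3.38 with CBL0137 and -3.28 and -3.21 with DMSO, a difference of -0.20. By FPKM this ratio was -3.64 and -5.06 with CBL0137 and -4.23 and -4.10 with DMSO, where the groups overlapped. In the 3 pairs the count ratios of the groups did not overlap, and RPL7L1 was not called with library size alone (-0.55).

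RPS27L, a p53-inducible paralog of RPS27 that the symbol rule leaves out, went the other way. It had 33.1 and 32.9 CPM with CBL0137 and 17.5 and 17.2 CPM with DMSO and rose by 0.93 (SE 0.093, edgeR, Benjamini-Hochberg adjusted p = 1.4e-11). Its log2 ratio to RPS27 was -3.97 and -3.95 with CBL0137 and -4.80 and -4.82 with DMSO, a difference of 0.85 (0.78 by FPKM). RPL36AL, a retrocopy-derived relative of RPL36A, had 60.5 and 62.6 CPM with CBL0137 and 51.2 and 45.3 CPM with DMSO (0.35, SE 0.071, not called). Its log2 ratio to RPL36A differed by 1.99 by counts and by 1.67 by FPKM, with the low counts of RPL36A as described. RPL26L1 had 39.4 and 33.3 CPM with CBL0137 and 45.6 and 46.4 CPM with DMSO (-0.34, SE 0.08, not called), and its ratio to RPL26, also thinly counted, differed by 0.21, by -0.081 without CBL0137 replicate 1 and by 0.49 without CBL0137 replicate 2. RPL3L had 7 and 18 reads with CBL0137 and 12 and 9 with DMSO, too few to show a difference at this depth (0.018, SE 0.56). RPS4Y1 and RPL10L had 0 reads in every library. Paralogs and processed pseudogenes share sequence with their parents (78 members have pseudogenes named after them, 1600 in all), so a part of such reads may be counted elsewhere or not at all.

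**Figure D4:**
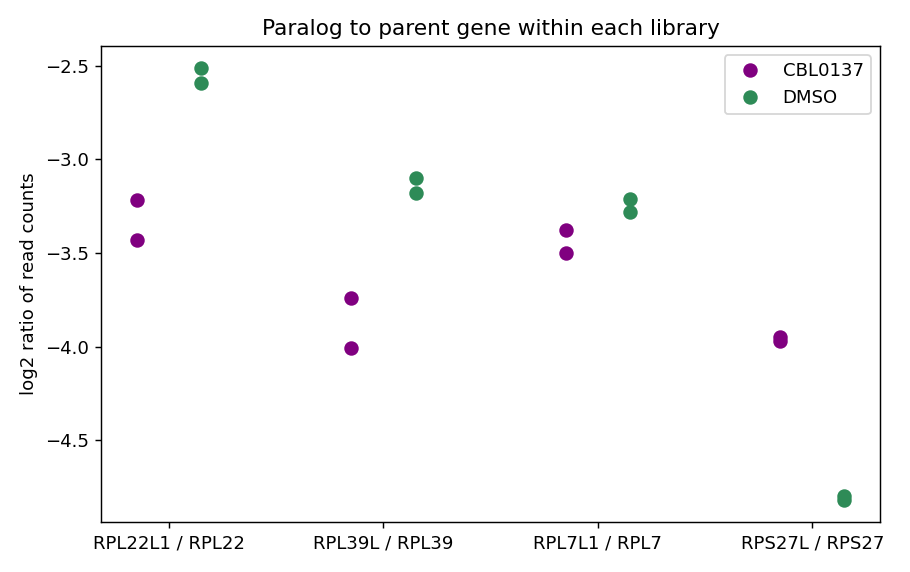
Log2 ratio of paralog to parent read counts in each CBL0137 library and each DMSO library, for 4 pairs in which neither gene was thinly counted. The CBL0137 points lie below the DMSO points for RPL22L1, RPL39L and RPL7L1 and above them for RPS27L, by 0.85.

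Longer ribosomal protein genes had lower values. Across 70 members, leaving out the 7 thinly counted genes and the paralogs, Spearman's rho between coding length and log2 fold change was -0.52 (-0.44 with FPKM differences). It was -0.41 over 42 large and -0.75 over 28 small subunit genes. Among 5709 other coding genes in the same range of coding length it was 0.01. Split into equal parts by length, the shortest genes (75 to 396 bases, n = 23) had 7 called lower, with a median of -0.39. The middle ones (405 to 582 bases, n = 24) had 8 (median -0.51), and the longest (588 to 1281 bases, n = 23) had 16 (median -0.68). Over all genes tested, 15.1% were called lower. RPL41, with the shortest coding sequence of 75 bases, fell by 0.62 nonetheless (not called with library size alone, -0.46, or FPKM, -0.57), and RPL7A with 798 bases was not called (-0.41). The abundance of the genes moved with length: the median FPKM in DMSO cells was 448, 568 and 804 from the shortest to the longest genes, and rho between DMSO CPM and log2 fold change was -0.48. These genes share the same 4 libraries, the relation was noticed in these values, and it is given as a description. Its cause was not tested.

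**Figure D5:**
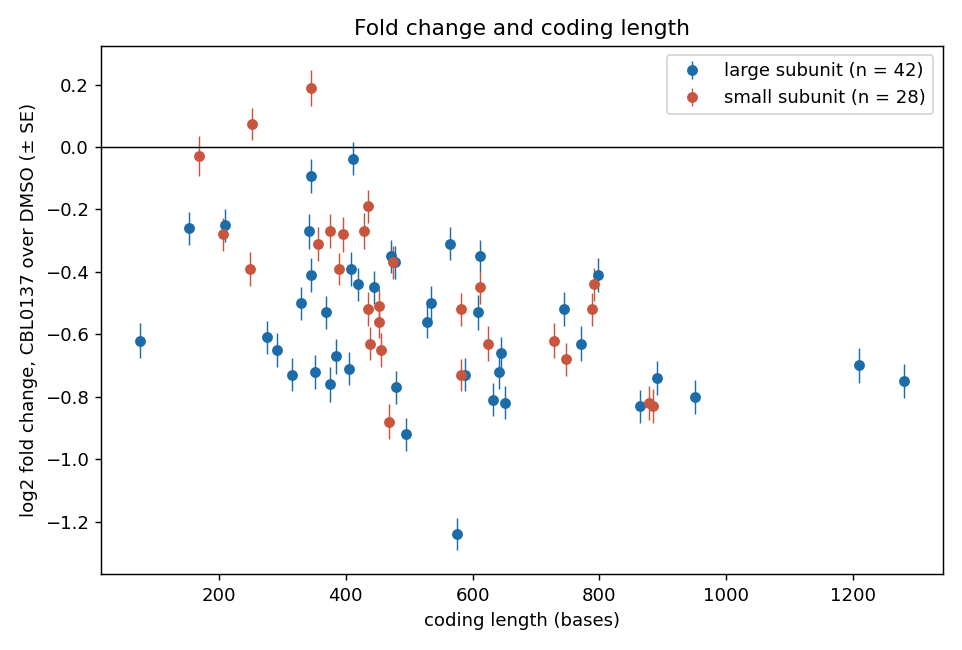
Log2 fold change with standard error (CBL0137 over DMSO, edgeR) against coding length in bases for 42 large and 28 small subunit genes. Points drift down from the shortest to the longest genes, with RPS26 at 0.19 and 345 bases at the top and RPL9 at -1.24 and 576 bases at the bottom.

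The promoter and start sequences were listed for 66 members, with 82 starts. A start with C and at least 4 further pyrimidines was found at 47 of these starts (57.3%), against 4.07% of 35116 starts of all genes. Of the 75 members that were not thinly counted, 44 had such a start, with log2 fold changes between -1.44 (RPL22L1) and 0.074 (RPS27). Of these 44 genes 19 were called lower (median -0.53), and 17 were listed without it, of which 9 were called lower (median -0.70). Over all genes tested, 15.1% were called lower. That share was not computed for all genes with or without such a start. Genes without it at their listed starts include RPL9, RPL4, RPL3 and RPL6 as well as RPS26 and RPS29. The rule asks for the run at the exact listed base. In RPL9, RPL4 and RPS26 a run of pyrimidines begins some bases after it. Whether transcripts of these cells start at the listed base was not tested. In the 300 bases around the start, searched on both strands, CCGGAAG (an ETS motif) was present at 32.9% of member starts and 10.3% of all starts, AAGATGGCG (a YY1 motif) at 7.32 and 1.75%, GGGCGG (a GC box) at 53.7 and 45%, CACGTG (an E-box) at 6.1 and 7.26%, TATAAA at 8.54 and 11.5%, and GGAAGGAA at 3.66 and 3.67%. These are matches of letters and not measured binding.

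FAU, a ubiquitin-like protein fused to a 40S protein, falls outside the symbol rule. It had 46.7 and 50.9 CPM with CBL0137 and 49 and 44.4 CPM with DMSO (0.065, SE 0.074), the groups overlapped, and it was not called. Its counts stand for 150.5 bases at its FPKM (342 and 349.9 with CBL0137, 323 and 298 with DMSO), so it too was thinly counted.

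Other mRNAs with TOP motifs and the machinery that handles ribosomal proteins were counted by lists. Each count is to be read beside the 15.1% of all genes called lower and the 18.2% called higher. Of 15 other tested TOP genes, 6 fell and 0 rose, with a median of -0.39. RACK1, a scaffold bound to the 40S head, had 768 and 765 CPM with CBL0137 and 1620.2 and 1521 CPM with DMSO and fell by 1.04. EIF3E, a subunit of initiation factor 3, had 422 and 444 CPM with CBL0137 and 838 and 800.1 CPM with DMSO and fell by 0.92. At the other end were EEF1D, an elongation factor subunit, with 228 and 208 CPM with CBL0137 and 167 and 166 CPM with DMSO (0.39), and VIM, a filament protein (0.37), neither called. EEF1A1, EEF1B2, TPT1 and NPM1 made up the rest of those that fell, of which EEF1A1 and TPT1 were not called with library size alone (-0.48 and -0.44) or FPKM (-0.54 and -0.53). EEF1G had 0 counts in every library but 897 and 883 FPKM with CBL0137 and 1179.8 and 1122 FPKM with DMSO.

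Of 15 tested chaperones and importins of ribosomal proteins, 4 fell and 0 rose (median -0.43), against 15.1% of all genes called lower. HEATR3, which escorts RPL5, had 8.6 and 8.76 CPM with CBL0137 and 19.9 and 20.4 CPM with DMSO and fell by 1.21. The importin KPNB1 had 424 and 440.4 CPM with CBL0137 and 878 and 867 CPM with DMSO and fell by 1.01, and RPF2 and RPS19BP1 fell too. TSR2, the chaperone of RPS26, was at 0.21 (SE 0.072), and GRWD1, the chaperone of RPL3, at 0.05 (SE 0.064), neither called.

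Late 60S maturation had 3 of 7 lower and 0 higher (median -0.22), against 15.1% of all genes called lower. It had 0 lower and 1 higher (LSG1) with library size alone and 1 lower (EIF6) and 1 higher (LSG1) by FPKM. MRTO4, which holds the place of the stalk in the precursor, fell by 0.65, EIF6, which keeps the subunits apart, by 0.64, and EFL1, the GTPase that releases EIF6, by 0.61. LSG1, a GTPase that releases the export adaptor NMD3, was at 0.44, not called (0.60 with library size alone and 0.63 by FPKM, both called), and ZNF622 at 0.40. Ribosome-associated and quality control genes had 2 of 14 lower (NACA and ASCC3, each by 0.63, neither called with library size alone or FPKM) and 0 higher (median -0.31), which is a share close to that of all genes, with RNF10 and LTN1, ubiquitin ligases, highest at 0.21. Of 11 candidate regulators 3 fell and 0 rose (median -0.15), beside the same 15.1%. Those that fell were GABPB1, a partner of the ETS factor GABPA, by 0.97, MYC by 0.74 and LARP1 by 0.59. YY1 (0.067) and TBPL1 (0.069) were highest. LARP1, the TOP-binding protein, had 601 and 615 CPM with CBL0137 and 923 and 909.8 CPM with DMSO. Its value lay at the fold limit, and it was not called with library size alone (-0.43), upper-quartile factors (-0.52), CPM above 1 in every library (-0.54), FPKM (-0.43) or without CBL0137 replicate 1 (-0.58).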

How the data were processed

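Total RNA of SKNMC cells was sequenced in 4 libraries, 2 of each group. The authors used Trim Galore, HISAT2 on hg19 and HTSeq 0.11.1, per the series' design text, and deposited raw read counts per gene. The authors also deposited FPKM values, which relate reads to gene length and depth. The submitters' processing notes name mm10 as well, with no role. The sources used here state neither library strandedness nor the annotation release nor the FPKM tool. The FPKM are not a rescaling of the counts, so counts were the basis and FPKM an alternative.

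Counts were tested with edgeR 4.0.16 in R 4.3.3 (TMM factors 1.06 and 1.05 for CBL0137, 0.943 and 0.95 for DMSO; filterByExpr; quasi-likelihood F test; Benjamini-Hochberg adjustment over 17374 genes), with the adjusted p of 0.05 and fold of 1.5 that the series' design text names. CPM use the TMM-scaled totals, and SE is the absolute log2 fold change over the square root of F. FPKM were tested with limma 3.58.1 on log2(FPKM + 1), which understates changes of low genes. The pipeline was tested on simulated data. The table holds 6 entries that name no gene, which were left out. Replicate libraries were further apart than sampling noise (chi-square per degree of freedom 2.82 for CBL0137 and 3.12 for DMSO), with a coefficient of variation of 4.11%. Names, positions and coding lengths came from GENCODE 44 on GRCh37, the build of hg19, which held 58524 of the identifiers. Start sequences are RefSeq's.

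The members, lists and rules were chosen with earlier results of these data known. Full values were given for the 6 lowest and 6 highest members, the stalk and 5S particle genes, paralog pairs, the 4 members with the most reads, and the 2 lowest and 2 highest genes of each list. Other genes were chosen after their values were seen, as was the limit of 200 bases on the transcript length implied by the counts. IPO4 (1 to 5 reads, but 15 to 22.4 FPKM) and EEF1G (0 reads) did not pass the filter on counts and PECAM1 matched no identifier. The values of a few genes are not reported here. Of the members, 34 overlap a gene on the opposite strand, whose reads cannot be told apart without strand. Alternatives were other scalings, filters, thresholds and pseudocounts, the DESeq2 1.42.0 test, a replicate block, and each library left out.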

Additional observations from a re-analysis of the deposited data

How the results depend on the processing

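The count of ribosomal protein genes called lower, 35, was 15 with library size alone, 72 with no fold limit, 3 at a fold above 2, and 21 with FPKM at either pseudocount (1 or 0.1). It was 29 to 42 when 1 library was left out, 29 without DMSO replicate 1 and 42 without DMSO replicate 2, and 29 members were lower in each of these 4 fits. With no fold limit 2 were higher. Large subunit calls were 12, 46, 3 and 17 of 51 genes, and small subunit calls 3, 26, 0 and 4 of 31. These are for the same 4 settings (library size alone, no fold limit, fold above 2, FPKM with pseudocount 1). Of all genes, 10.8, 30.9, 7.01 and 7.85% were lower under them. The small subunit with library size alone, and the 82 members at a fold above 2, did not exceed these shares. Upper-quartile factors gave 5 for the small subunit (13.1% of all genes). The median was -0.36 with library size alone and -0.60 to -0.47 with 1 library left out. The difference in share of reads was -1.48 percentage points, -1.24 with unassigned reads in the denominator, and -1.65 to -1.31 with 1 library left out. At a fold above 2, 1 TOP gene, 2 chaperone or importin genes, and 0 late 60S, quality control and regulator genes were lower. With no fold limit, 11 chaperone or importin, 9 quality control and 6 regulator genes were. Regulator calls were 2 with library size alone, upper-quartile factors, FPKM, CPM above 1 in every library or without CBL0137 replicate 1. Late 60S calls were 0 with library size alone or upper-quartile factors and 1 with FPKM. Quality control calls were 0 with library size alone, upper-quartile factors, FPKM, or CPM above 1 in every library, and 2 to 4 with 1 library left out (4 without DMSO replicate 2). Causes were not tested.

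The labels do not state whether the same replicate numbers pair the libraries. Deviations of same-numbered libraries had a correlation of 0.0196, which shows no large shared effect but cannot settle how they were grown. With a replicate block, 35 members were lower, and no call of a count given here moved by over 1.5 times. The DESeq2 test also gave 35. Of 699 values of 50 named genes under alternatives, 636 kept direction and call, 27 changed sign with no call, 31 lost the call and 5 gained one (LSG1 higher with library size alone and with FPKM at both pseudocounts, and RPL26 lower without CBL0137 replicate 2 and without DMSO replicate 2). RPL3L, RPS10, RPS29, RPL23A, FAU, GRWD1, RNF10 and TBPL1, none called, were among those that changed sign under 1 or more settings. The 50 genes do not include every gene described above. RPL10, RPL28 and RPL30 lie outside them and also changed sign. Of these, RPL10 was called lower by counts (-0.72) and had 0.17 by FPKM.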
